A study of Nasonia vitripennis x Nasonia giraulti with 2 samples.

Results

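The methylation of the *Nasonia giraulti* (G) allele was compared between hybrid daughters that had received it from their father and hybrid daughters that had received it from their mother. CpGs (a cytosine followed by a guanine) were used where both libraries listed the same scaffold and position and where the G reads of both libraries together were methylated at 10% or more. This left 136043 of the 5531492 CpGs that the libraries share, or 2.46%, on 1401 scaffolds. The members were also grouped into runs of at least 4 CpGs with no more than 1000 bp between neighbours, which gave 8393 runs holding 74010 CpGs. The filter uses the sum of both libraries and not their difference.

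Whole-genome bisulfite sequencing (WGBS-seq) was made from F1 females of reciprocal crosses between *N. vitripennis* (Nv, strain AsymCX) and *N. giraulti* (Ng, strain R16A), as whole bodies of 50 pooled adults at 24 h after eclosion, with 1 library for each cross. In F1VG the mother was Nv and the father Ng, so its G allele was paternal and its V allele maternal. In F1GV the mother was Ng and the father Nv, so its G allele was maternal and its V allele paternal. The parent that gave the allele, the mother's cytoplasm and the library cannot be told apart in these crosses. No replicate error was measured, and every test below compares the reads of 2 libraries.

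*Nasonia* carries the DNA methyltransferases that its relatives among the bees and ants also have, and in these wasps CpG methylation is known to lie mainly within the transcribed bodies of broadly expressed genes, while most of the genome is unmethylated. In haplodiploid wasps, males develop from unfertilized eggs and carry no paternal allele, so parental alleles can be compared in females only. In mammals, imprinted regions carry methylation on the allele of 1 parent. A mark of that kind would turn with the cross, with the same species allele methylated when it comes from the father and unmethylated when it comes from the mother, or the reverse, and the reciprocal crosses address whether any CpG or run does so.

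Total counts over the listed CpGs were 286833473 for F1VG against 371795018 for F1GV. At the members, the median depth of G reads was 16 for the paternal allele (quartiles 12 and 23) and 20 for the maternal allele (quartiles 14 and 28). A methylation level is the percentage of reads left unconverted by bisulfite. Among the shared CpGs under 10%, 1.53% of G reads were unconverted in F1VG and 1.66% in F1GV, which is the background that methylated and unconverted reads give together at CpGs outside the comparison. Over all shared CpGs the share was 2.29% for the paternal and 2.37% for the maternal G reads. Positions refer to the scaffolds of *N. vitripennis* v1.0. Genes were not assigned to CpGs, because an annotation of this build was not used here.

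Among the members, the G allele was on average more methylated when it came from the father. Over the reads of all shared CpGs the paternal level was the lower, at 2.29% against 2.37%. It was also the lower at shared CpGs under 10%, at 1.53% against 1.66%. Over all members the mean G level was 35.1% (SD 32.7 over CpGs) for the paternal allele and 31.6% (SD 32.8) for the maternal allele, a difference of 3.54 ± 19.1 percentage points. At the 38378 members at 50% or more it was 82.0% for the paternal allele and 79.5% for the maternal allele, a difference of 2.53 ± 16.5, in a class whose level filter itself bounds the difference. At the same CpGs the V allele differed between F1VG and F1GV by 0.199 ± 12.8 points over all members and by 1.11 points over those at 50% or more. The paternal G level was the higher at 77650 members, the lower at 55392, and equal at 3001. Across CpGs, which share the libraries and often the reads, Pearson's r between paternal and maternal G was 0.830 and Spearman's rho 0.413. Within the members at 50% or more r was 0.466 and rho 0.531.

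**Figure D1:**
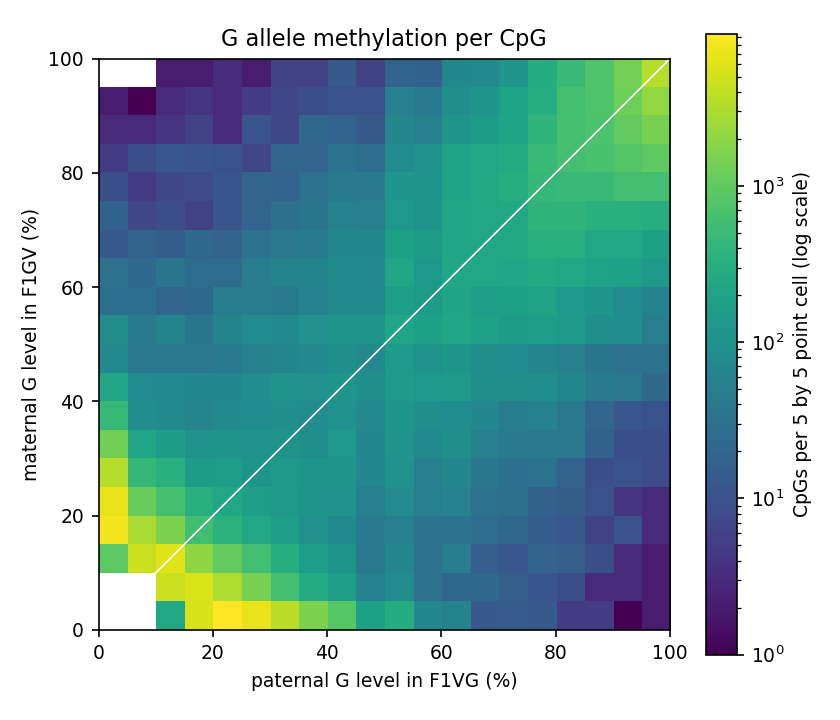
Number of member CpGs (colour, log scale) by the G level of the paternal allele in F1VG (horizontal axis, %) and of the maternal allele in F1GV (vertical axis, %), in cells of 5 by 5 percentage points, with the line of equal levels. Most CpGs lie near the top right corner on the line or, in the 10–20% class with 85666 CpGs, along the axes near the origin, where most methylated reads come from 1 library.

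The mean difference depended on how methylated a CpG was. The class with a pooled level of 10–20% held 85666 members, 63.0% of all, and averaged 14.2% on the paternal G allele and 10.4% on the maternal G allele, a difference of 3.83 points. The difference was largest at 20–30%, with 6.10 points, lay between 3.07 and 3.96 points from 30% to 70%, and then narrowed to 3.24, 2.56 and 1.18 points in the classes 70–80%, 80–90% and 90–100%. The last class held 12122 CpGs, with 95.6% on the paternal allele and 94.4% on the maternal allele. The V allele at the same CpGs differed by less than the G allele in each of the 9 classes, from -0.470 points at 20–30% to 1.91 points at 60–70%.

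When CpGs were chosen in the same way on the V allele, 128875 in number, V was higher in F1VG at the low end as well. There V is maternal in F1VG and paternal in F1GV. At 10–20% V averaged 14.5% in F1VG and 10.2% in F1GV, a difference of 4.29 points and of the same sign as on G. At 40–50% it was lower in F1VG (-6.38 points), where the G class of the same level had 3.07. At 90–100% both were higher in F1VG, V by 0.910 and G by 1.18 points. Over all V-chosen CpGs the V difference was 2.07 ± 21.2 points and the G difference 0.522 ± 12.4 points. The V-chosen and the G-chosen difference had the same sign in the classes 10–30% and 80–100% and opposite signs from 30% to 80%.

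**Figure D2:**
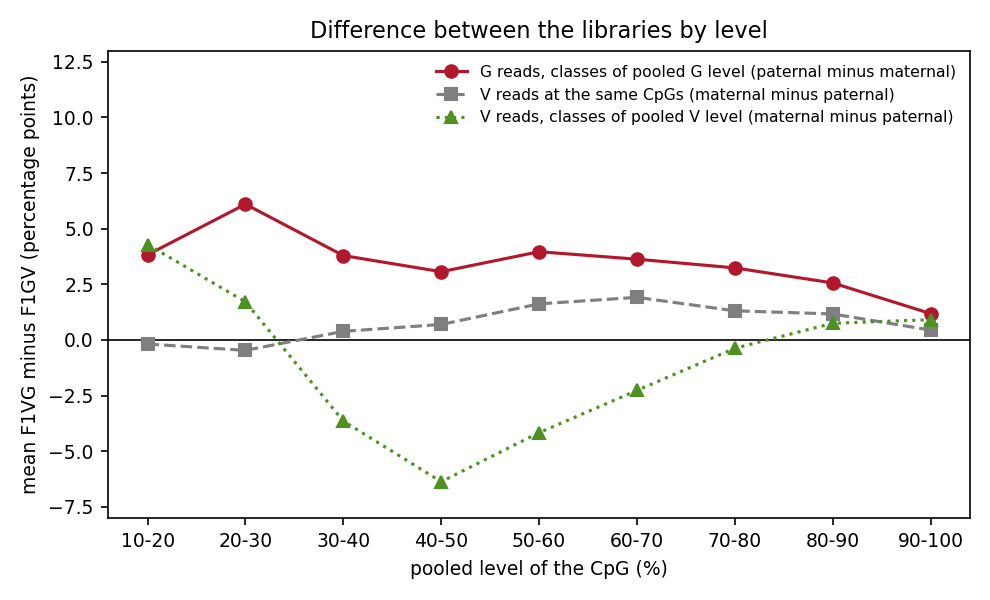
Mean F1VG minus F1GV level (percentage points) in classes of the pooled level (%), for G reads by G level (circles), V reads at the same CpGs (squares) and V reads at CpGs chosen on V (triangles). The G difference is above 0 in all 9 classes, with its peak of 6.10 points at 20–30%, and the V-chosen difference runs from 4.29 points at 10–20% to -6.38 at 40–50%.

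The low class was mostly CpGs under 10% on V. A G level of 10–20% with a V level under 10% was found at 80432 members, 59.1% of all, and their G level was 4.15 ± 18.5 points higher on the paternal allele while V differed by -0.0973 points. The difference grew with depth, from 2.85 points where the shallower library had 8–11 G reads to 4.33 at 12–15, 5.16 at 16–23 and 5.62 at 24 or more. At 10–20% on G and 80% or more on V, by contrast, the paternal G level was lower (-5.93 ± 17.3 points) over 315 CpGs. F1GV was the deeper library (medians of 15 G reads in F1VG and 18 in F1GV in the class of low G and V). With the deeper library thinned to the depth of the other at each CpG and the members chosen again, 170165 in number with 118217 at 10–20%, the difference of all members stood at 4.06 points and that of the 10–20% class at 4.19. CpGs just inside the limit, from 10% to under 10.5%, had 11.3% on the paternal allele and 8.98% on the maternal allele (n = 17326), and those just outside, from 9.5% to under 10%, had 10.6% on the paternal and 8.58% on the maternal allele (n = 14558).

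Few CpGs passed the adjusted test. In Fisher's exact tests of the G reads (two-sided, adjusted by Benjamini-Hochberg over the 136043 members), 671 CpGs (0.493%) had a higher paternal G level and 470 (0.345%) a higher maternal G level at an adjusted p under 0.05. V reads at the same CpGs, tested in the same way, gave 1355 calls (0.996%), more than G gave in both directions together. The share called was highest at a pooled level of 30–40%, with 7.48%, and was 0.203% at 10–20%, 0.193% at 80–90% and 0 of 12122 CpGs at 90–100%. In the lowest and highest classes the pooled level itself bounds the difference, so a call is harder or impossible to reach there. The shares of the classes are therefore not comparable as results. At an unadjusted p under 0.05, 13.9% of the members passed. The spread of the G difference exceeded what read sampling gives by a variance ratio between 1.34 at 90–100% and 3.67 at 30–40%, while the exact test counts reads as independent. With the test limited to members at 50% or more there were 218 paternal and 156 maternal calls, and at equal G depth 246 paternal and 225 maternal.

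At the median, the called CpGs were low on 1 side and high on the other. At the 671 paternal calls the median level was 70.4% on the paternal allele and 8.33% on the maternal allele, with a median of 25 reads in F1VG and 31 in F1GV. At the 470 maternal calls it was 7.23% on the paternal allele and 66.7% on the maternal allele, with a median of 26 reads for F1VG and 32 for F1GV. The median absolute difference was 52.2 points (quartiles 44.2 and 62.4) for paternal and 53.4 points (44.7 and 63.7) for maternal calls, and the smallest of any call was 20.3 points. Differences under that size were not called at any CpG, and at low depth a larger difference is needed for a call. A level of at least 80% on the paternal and at most 20% on the maternal allele was found at 95 members, and the reverse at 69.

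V was called at 7.0% of the paternal and 8.94% of the maternal calls, against 0.996% of all members. These shares were not matched for depth or V level, and the calls had more G reads than the members as a whole. Of the paternal calls, V was also called in the same direction at 18, in the opposite direction at 29 and not at 624. Of the maternal calls, V was called in the same direction at 21, in the opposite direction at 21 and not at 428. V had medians of 17.1% (F1VG) and 21.9% (F1GV) at paternal calls, and of 61.4% (F1VG) and 65.4% (F1GV) at maternal calls. The pooled V level was under 10% at 267 of the 671 paternal calls and at 81 of the 470 maternal calls. These are 39.8% of the paternal and 17.2% of the maternal calls, against 85824 of all 136043 members (63.1%).

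The 5 paternal CpGs with the smallest p were high on the father's G allele and under 30% on the mother's. At position 172080 of SCAFFOLD35, 30 of 38 paternal reads were methylated (78.9%, 95% Wilson interval 63.7–88.9%), against 0 of 40 maternal reads, which allows a level of up to 7.5% (adjusted Fisher's exact p = 5.1e-10). V differed the other way there, at 1 of 17 (F1VG) and 16 of 44 (F1GV) reads. At position 2173643 of SCAFFOLD2, 19 of 20 paternal reads (Wilson interval 76.4–99.1%) and 0 of 39 maternal reads (up to 7.69%) were methylated, and V had 16 of 25 in F1VG and 30 of 35 in F1GV. In both, the mother's G allele had no methylated read while V was methylated in F1GV.

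At the other 3 the V level was alike in both libraries. Position 820161 of SCAFFOLD14 had 43 of 43 paternal reads (100%, 91.8–100%) and 16 of 54 maternal reads (29.6%, 19.1–42.8%) methylated, with 21 of 35 V reads in F1VG and 28 of 46 in F1GV. Position 2788574 of SCAFFOLD19 had 26 of 31 paternal (83.9%, 67.4–92.9%) and 1 of 41 maternal reads (2.44%, 0.432–12.6%), with V at 3.57% in F1VG and 5.26% in F1GV. Position 3563889 of SCAFFOLD16 had 39 of 41 paternal (95.1%, 83.9–98.7%) and 8 of 42 maternal reads (19.0%, 9.98–33.3%), with V at 93.8% in F1VG and 94.4% in F1GV. The intervals do not overlap at any of these 5 CpGs, which follows from choosing them by the smallest p. The intervals cover counting error only, since PCR copies of a molecule enter as separate reads.

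Among the maternal CpGs, the G allele of the father was under 15% in all 5. Position 159039 of SCAFFOLD62 had 1 of 38 paternal reads (2.63%, 0.466–13.5%) and 34 of 39 maternal reads (87.2%, 73.3–94.4%) methylated, the smallest p of any member (adjusted Fisher's exact p = 3.4e-10), with V at 88.0% in F1VG and 81.2% in F1GV. Position 691743 of SCAFFOLD44 had 0 of 27 paternal reads (up to 11.1%) and 42 of 49 maternal reads (85.7%, 73.3–92.9%), with V unmethylated, at 0 of 49 (F1VG) and 1 of 28 (F1GV) reads. This CpG passed the 10% filter through its maternal reads alone. Position 1142074 of SCAFFOLD35 had 1 of 51 paternal (Wilson interval 0.347–10.3%) and 36 of 51 maternal reads (70.6%, 57.0–81.3%), with V at 95.2% in F1VG and 88.1% in F1GV. At these 3 the difference was on G, and V was not called.

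Position 124895 of SCAFFOLD15 had 7 of 48 paternal (14.6%, 7.25–27.2%) and 44 of 50 maternal reads (88.0%, 76.2–94.4%), with V at 83.3% in F1VG and 91.9% in F1GV. Position 4431470 of SCAFFOLD2 had 2 of 41 paternal (4.88%, 1.35–16.1%) and 34 of 41 maternal reads (82.9%, 68.7–91.5%). It is the exception among the 10, because V was itself called (adjusted Fisher's exact p = 0.018). V differed there in the direction of G, at 9 of 45 reads (20.0%) for F1VG against 29 of 49 (59.2%) for F1GV. At position 124895 of SCAFFOLD15 and position 691743 of SCAFFOLD44 V was also the lower in F1VG, without a call.

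Most neighbours of these CpGs were not called. The neighbours counted were nearby members and not always the whole run. For position 4431470 of SCAFFOLD2 they were 2, in a run of 5 CpGs whose called position 4432476 was not among them. Near position 2173643 of SCAFFOLD2, 7 of the 15 members counted had the same direction, none was called and their median difference was 0. Around position 159039 of SCAFFOLD62, 8 of 16 had the same direction, with a median of -4.03 points and no call. Position 3563889 of SCAFFOLD16 had 4 neighbours called in its own direction out of 16, the most of the 10, and position 691743 of SCAFFOLD44 had 2 of 13. None of the 10 had a neighbour called the other way among those counted.

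Over all calls, neighbours agreed mainly within the length of a read. Neighbouring calls less than 110 bp apart, which the same reads can cover, had the same direction in 123 of 129 pairs (95.3%, 95% Wilson interval 90.2–97.9%). At 110–300 bp it was 15 of 24 (62.5%, 42.7–78.8%), at 301–1000 bp 29 of 45 (64.4%, 49.8–76.8%) and at 1001–5000 bp 41 of 92 (44.6%, 34.8–54.7%). The G difference of neighbouring members, called or not, had an r of 0.278 over 42174 pairs within 109 bp, of 0.0180 over 16675 pairs at 110–300 bp and of 0.0186 over 27136 pairs at 301–1000 bp. The pairs within 109 bp share reads. Calls were made at 994 of 74010 CpGs in runs (1.34%) and at 147 of 62033 outside them (0.237%), but runs hold more CpGs of high level. At 50% or more the counts were 332 of 37121 in runs (0.894%) and 13 of 1257 outside them (1.03%). Within runs, CpGs at 50% or more were called about as often at a run's ends, 39 of 4108 (0.949%), as inside, 293 of 33013 (0.888%).

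Run means were on average higher on the paternal than on the maternal G allele. A run had a median of 6 CpGs (quartiles 4 and 11) and a median length of 1424 bp (916 and 2052). The mean over runs was 40.6% on the paternal allele and 37.2% on the maternal allele, a difference of 3.42 ± 8.87 points (SD over runs), and V in the same runs differed by 0.309 ± 5.77 points. The difference was within 10 points in 6167 runs (73.5%). It reached 20 points towards the paternal allele in 323 runs and towards the maternal allele in 65. Across runs r was 0.947 and rho 0.786. Among the 3684 runs at 50% or more the difference was 2.22 ± 6.94 points, the lowest -30.0 and the highest 34.9. A pooled level of 50% or more by itself limits how far apart the alleles can lie. Without that limit, a run mean of at least 50% on the paternal and at most 10% on the maternal allele was found in 0 of the 8393 runs, and the reverse in 1.

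**Figure D3:**
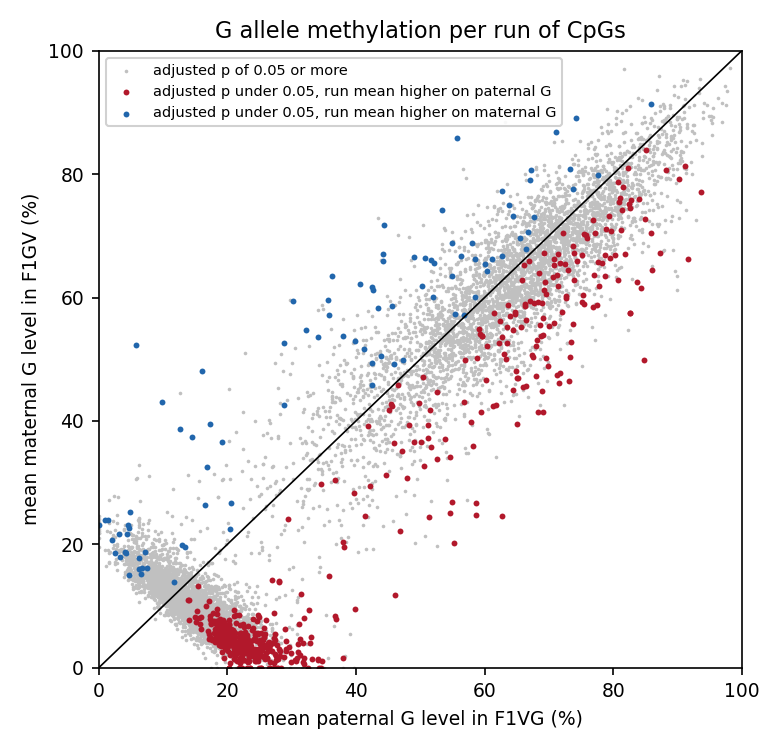
Mean G level of each of the 8393 runs on the paternal allele in F1VG (horizontal axis, %) and on the maternal allele in F1GV (vertical axis, %), with runs at an adjusted p under 0.05 coloured by the direction of the run mean and the line of equal levels drawn. Runs at 50% or more follow the line with an SD of 6.94 points, the corners at the top left and the bottom right are empty, and most coloured runs lie at the lower left, below 40% on either allele.

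For a test over a run, G reads were summed over CpGs at least 110 bp apart, so that no read counted more than once. In this test (Fisher's exact test, two-sided, adjusted over the 8393 runs), 521 runs (6.21%) were higher on the paternal and 94 (1.12%) on the maternal G allele. V in the same runs gave 165 calls (1.97%). Most paternal calls were runs of low level, since 335 of the 521 (64.3%) had a pooled G level under 20%, and 331 of these had V under 10%. Of all 8393 runs, called or not, 3904 had G under 20% and V under 10%. Of the maternal calls 23 of 94 (24.5%) were under 20%. Over the spaced CpGs, 54 of the 521 paternal runs had 0 methylated maternal reads. In 10 of the 94 maternal runs the paternal reads had 0 methylated. Among runs at 50% or more, 138 were called paternal and 45 maternal. The median difference of run means was 16.8 points over paternal and -13.5 points over maternal calls, and 166 paternal and 22 maternal calls reached 20 points. When runs were formed of CpGs at 50% or more, 111 were called paternal and 31 maternal.

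V was seldom called together with G, but the choice of runs on G limits what this shows. Pooled G was under 20% and V under 10% in 331 of the 521 paternal and 21 of the 94 maternal runs. A low pooled V level bounds the V difference, so a V call is hard to reach there. V was called in the same direction in 7 and in the opposite direction in 7 of the 521 paternal runs, and in the same direction in 2 and in the opposite direction in 1 of the 94 maternal runs. The mean V difference was -0.0384 ± 5.26 points in paternal and 0.615 ± 7.39 points in maternal calls. A likelihood ratio test of whether G and V differed by unequal amounts between the libraries passed at an adjusted p under 0.05 in 173 runs (2.06%). It passed in 54 of the paternal and 24 of the maternal calls, and in 58 runs where V was called and G was not. Zelen's exact test, which compares the odds ratios of G and V on the same sums and was added after these values were seen, passed in 140 runs, each of them among the 173. In most called runs, therefore, a difference between the change of G and that of V was not shown.

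The 8 paternal runs with the largest difference reached 33.9 to 38.2 points, and they fell into 2 kinds. In 3 of them the mother's G allele was at or near 0 and the father's at 34–38%. The run on SCAFFOLD5 from 2969515 to 2971122, of 10 CpGs, had 34 of 100 paternal and 0 of 115 maternal counts methylated, with each CpG at 27.3–45.5% on the paternal allele. The run on SCAFFOLD2 from 4549619 to 4550475 had 18 of 53 paternal and 0 of 60 maternal counts. The run on SCAFFOLD35 from 720218 to 721572 had 20 of 56 paternal and 1 of 86 maternal counts. With no methylated maternal read, the CpGs of the SCAFFOLD5 and SCAFFOLD2 runs passed the 10% filter through their paternal reads alone. On SCAFFOLD35 this held for all CpGs except position 721029. The paternal levels and the calls of these runs are thus not independent of the filter. The mean V level was below 5% in both libraries in all 3 runs, and no CpG of any of them passed the test by itself. Over the spaced CpGs of the SCAFFOLD35 run V in F1VG had 6.25% of reads methylated (95% Wilson interval 2.46–15.0%). Over the spaced CpGs of the SCAFFOLD5 run, 11 of 32 paternal (34.4%, 20.4–51.7%) and 0 of 40 maternal reads were methylated, which allows up to 7.5% (adjusted Fisher's exact p = 0.0035). With neighbours limited to 300 bp the SCAFFOLD5 difference was 33.4 points and not called, and at equal depth the SCAFFOLD35 difference was 15.0 points and not called (adjusted Fisher's exact p = 0.58 and 0.11).

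The other 5 were methylated on both G alleles, more on the father's. The run on SCAFFOLD5 from 3368605 to 3369474 averaged 62.8% on the paternal and 24.6% on the maternal allele, with V at 15.98% in F1VG and 11.7% in F1GV. Its 5 CpGs had 5 of 16, 23 of 32, 20 of 38, 31 of 33 and 18 of 28 paternal reads methylated, against 0 of 8, 2 of 28, 17 of 49, 21 of 45 and 11 of 32 maternal reads. Every CpG was higher on the paternal allele, and the second and the fourth were called. The run on SCAFFOLD4 from 2572458 to 2573171 averaged 55.2% paternal and 20.2% maternal, and its CpGs differed by 2.5 to 77.9 points. The run on SCAFFOLD10 from 1833102 to 1833232, only 131 bp long, averaged 84.8% paternal and 49.9% maternal with V at 39.6% in F1VG and 40.7% in F1GV.

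In 2 of these runs the V means differed as well, without passing their test. The run on SCAFFOLD144 from 258543 to 259708 averaged 46.1% paternal and 11.8% maternal G, while V was at 22.3% in F1VG and 51.9% in F1GV. Here the father's allele had the higher mean on both G and V, and no other named run had G and V differ in opposite directions by more than 20 points each. It rests on 46 paternal and 59 maternal G counts over 4 CpGs, and V was not called (adjusted Fisher's exact p = 0.14). At equal G depth the G difference was 27.7 points and no longer called (adjusted Fisher's exact p = 0.43). The run on SCAFFOLD5 from 4131918 to 4132950 averaged 58.6% paternal and 24.7% maternal G, with V at 61.7% in F1VG and 43.2% in F1GV, so both alleles had the higher mean in F1VG (V adjusted Fisher's exact p = 0.43).

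**Figure D4:**
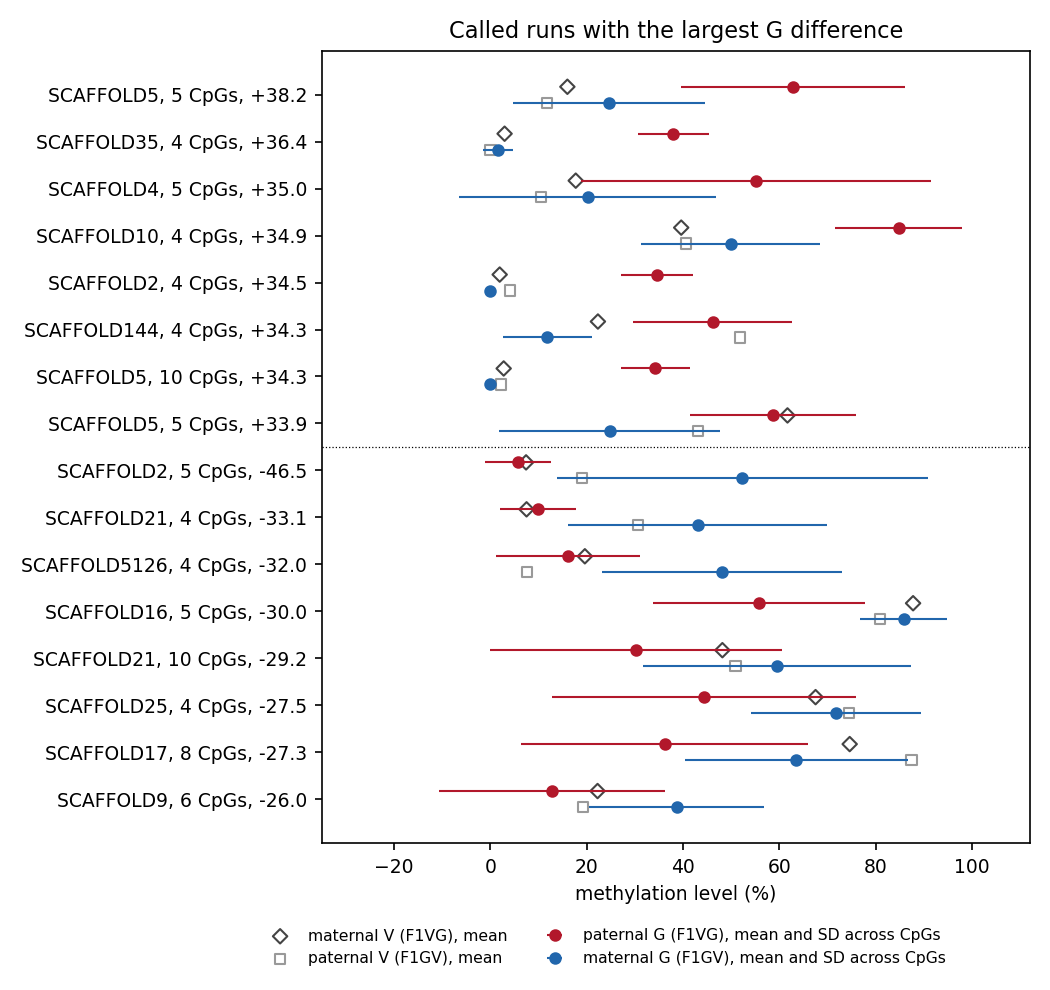
Mean level (%) of the 8 paternal (upper) and 8 maternal (lower) called runs with the largest G difference, with paternal G in F1VG and maternal G in F1GV as filled circles (bars, SD over the CpGs of the run) and maternal V in F1VG and paternal V in F1GV as open symbols. The labels give the scaffold, the number of CpGs and the F1VG minus F1GV difference, which runs from 38.2 to -46.5 points.

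The maternal runs differed by -26.0 to -46.5 points. The run on SCAFFOLD2 from 4431423 to 4432686, with the smallest p of any run (adjusted Fisher's exact p = 1.5e-07), averaged 5.74% on the paternal and 52.3% on the maternal G allele, with V at 7.40% in F1VG and 19.1% in F1GV. Its 5 CpGs had 2 of 28, 2 of 41, 2 of 12, 0 of 15 and 0 of 12 paternal reads methylated, against 32 of 43, 34 of 41, 0 of 8, 9 of 11 and 4 of 18 maternal reads. The third went the other way, and the first, the second and the fourth were called, the last of them 1053 bp from the first. The run rests on 108 paternal and 121 maternal counts. The run on SCAFFOLD21 from 577221 to 578322 averaged 9.89% paternal and 43.0% maternal, with 3 of 4 CpGs in this direction and V at 7.5% in F1VG and 30.7% in F1GV.

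In 4 maternal runs every CpG was lower on the paternal G allele. The run on SCAFFOLD5126 from 7632 to 8076 averaged 16.1% on the paternal and 48.1% on the maternal allele, and that on SCAFFOLD9 from 3370488 to 3371970 averaged 12.7% on the paternal and 38.7% on the maternal allele. The run on SCAFFOLD16 from 2193772 to 2194002, 231 bp long, averaged 55.8% paternal and 85.8% maternal. The run on SCAFFOLD21 from 2034734 to 2035806 averaged 30.3% paternal and 59.5% maternal. It had the most CpGs of the 4, and each of its 10 CpGs was lower on the paternal allele, by 10.4 to 61.3 points. Its V level was 48.2% in F1VG against 50.9% in F1GV, and G and V differed by unequal amounts (adjusted Zelen's exact p = 0.0030).

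In the remaining pair V was highly methylated. The run on SCAFFOLD25 from 850079 to 850512 averaged 44.3% on the paternal and 71.8% on the maternal G allele, with V at 67.5% (F1VG) and 74.4% (F1GV). The run on SCAFFOLD17 from 2563715 to 2564117 averaged 36.2% on the paternal and 63.5% on the maternal G allele, with V at 74.6% (F1VG) and 87.4% (F1GV), and 2 of its 8 CpGs went the other way. At equal depth the runs on SCAFFOLD5126, SCAFFOLD16 and SCAFFOLD25 had differences of -22.9, -26.5 and -30.0 points and were no longer called (adjusted Fisher's exact p = 0.070, 0.18 and 0.068). Among CpGs at 50% or more the SCAFFOLD17 difference was -12.3 points and not called.

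In the 4 runs with the most CpGs the G means of the father's and the mother's allele lay within 5 points. The run on SCAFFOLD40 from 577295 to 585559 held 63 CpGs over 8265 bp and averaged 60.7% on the paternal and 62.5% on the maternal G allele (-1.85 ± 19.6 points over CpGs). The run on SCAFFOLD9 from 2985026 to 2993964, of 59 CpGs, averaged 61.2% paternal and 57.8% maternal. The run on SCAFFOLD16 from 3756601 to 3763917, of 58 CpGs, averaged 65.4% paternal and 69.8% maternal. The run on SCAFFOLD10 from 252673 to 257863, of 55 CpGs, averaged 70.4% paternal and 72.4% maternal. None of the 4 was called (adjusted Fisher's exact p between 0.21 and 1.0). With at least 16 reads the SCAFFOLD16 run was called at -5.60 points (adjusted Fisher's exact p = 0.038), as it was when summed over all CpGs (adjusted Fisher's exact p = 0.0049). Single CpGs inside them still differed by up to 65.0 points, and on SCAFFOLD40 position 577829, with 13 of 43 paternal and 40 of 42 maternal reads methylated, was called. Its neighbour at position 577812, which the same reads can cover, had 4 of 49 paternal and 21 of 43 maternal reads and was called as well. Position 584057 of this run was called the other way, with 33 of 42 paternal and 15 of 51 maternal reads methylated (adjusted Fisher's exact p = 0.0016). There V was called too and was also higher in F1VG, with levels of 95.7% (F1VG) and 43.3% (F1GV, adjusted Fisher's exact p = 1.6e-04). Leaving out CpGs of low level or low depth split the SCAFFOLD40 run at gaps over 1000 bp. The part then compared had the other sign, with 7.15 points at 50% or more, 7.72 with at least 16 reads and 2.72 at 20% or more. In each of these settings that part was called (adjusted Fisher's exact p = 0.0041, 0.019 and 0.022).

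In runs with V under 10%, the G allele was methylated from either parent in those with the most CpGs. These 4 runs were chosen for a V level under 10% over both libraries, and their G levels were not part of that choice beyond the 10% of the members. The run on SCAFFOLD15 from 650733 to 654257, of 36 CpGs, averaged 66.4% on the paternal and 69.4% on the maternal G allele, with V at 1.42% in F1VG and 3.07% in F1GV. Its last 4 CpGs, at positions 654062, 654223, 654236 and 654257, were at 0%, 2.94%, 3.23% and 4% on the paternal and at 32.4%, 43.5%, 43.5% and 38.9% on the maternal allele, and the middle pair was called. Over the spaced CpGs the run differed by -11.8 points (adjusted Fisher's exact p = 0.054), and it was called with neighbours within 300 bp and at 20% or more (adjusted Fisher's exact p = 0.048 in each). The run on SCAFFOLD5 from 1278207 to 1280957, of 19 CpGs, averaged 59.1% paternal and 56.7% maternal, with V at 3.07% in F1VG and 1.24% in F1GV. In both crosses G was above 50% and V under 5% on average in these runs.

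The others differed more between the libraries. The run on SCAFFOLD34 from 904036 to 908218, of 36 CpGs, averaged 71.9% paternal and 62.0% maternal (adjusted Fisher's exact p = 0.12), with V at 2.93% in F1VG and 3.99% in F1GV. It was called with at least 16 reads, over all CpGs, at 20% or more and at 50% or more (adjusted Fisher's exact p = 0.028, 3.9e-04, 0.0080 and 0.028). The run on SCAFFOLD33 from 587227 to 591242, of 23 CpGs, averaged 42.5% paternal and 27.3% maternal (adjusted Fisher's exact p = 0.18), with V at 1.82% in F1VG and 13.04% in F1GV. It was called with at least 16 reads and over all CpGs (adjusted Fisher's exact p = 0.028 and 1.3e-07). V was called there (4 of 162 reads in F1VG against 49 of 246 in F1GV over spaced CpGs, adjusted Fisher's exact p = 2.8e-05), and G and V differed by unequal amounts (adjusted Zelen's exact p = 1.9e-05). In that run the paternal allele had the higher mean on both G and V.

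**Figure D5:**
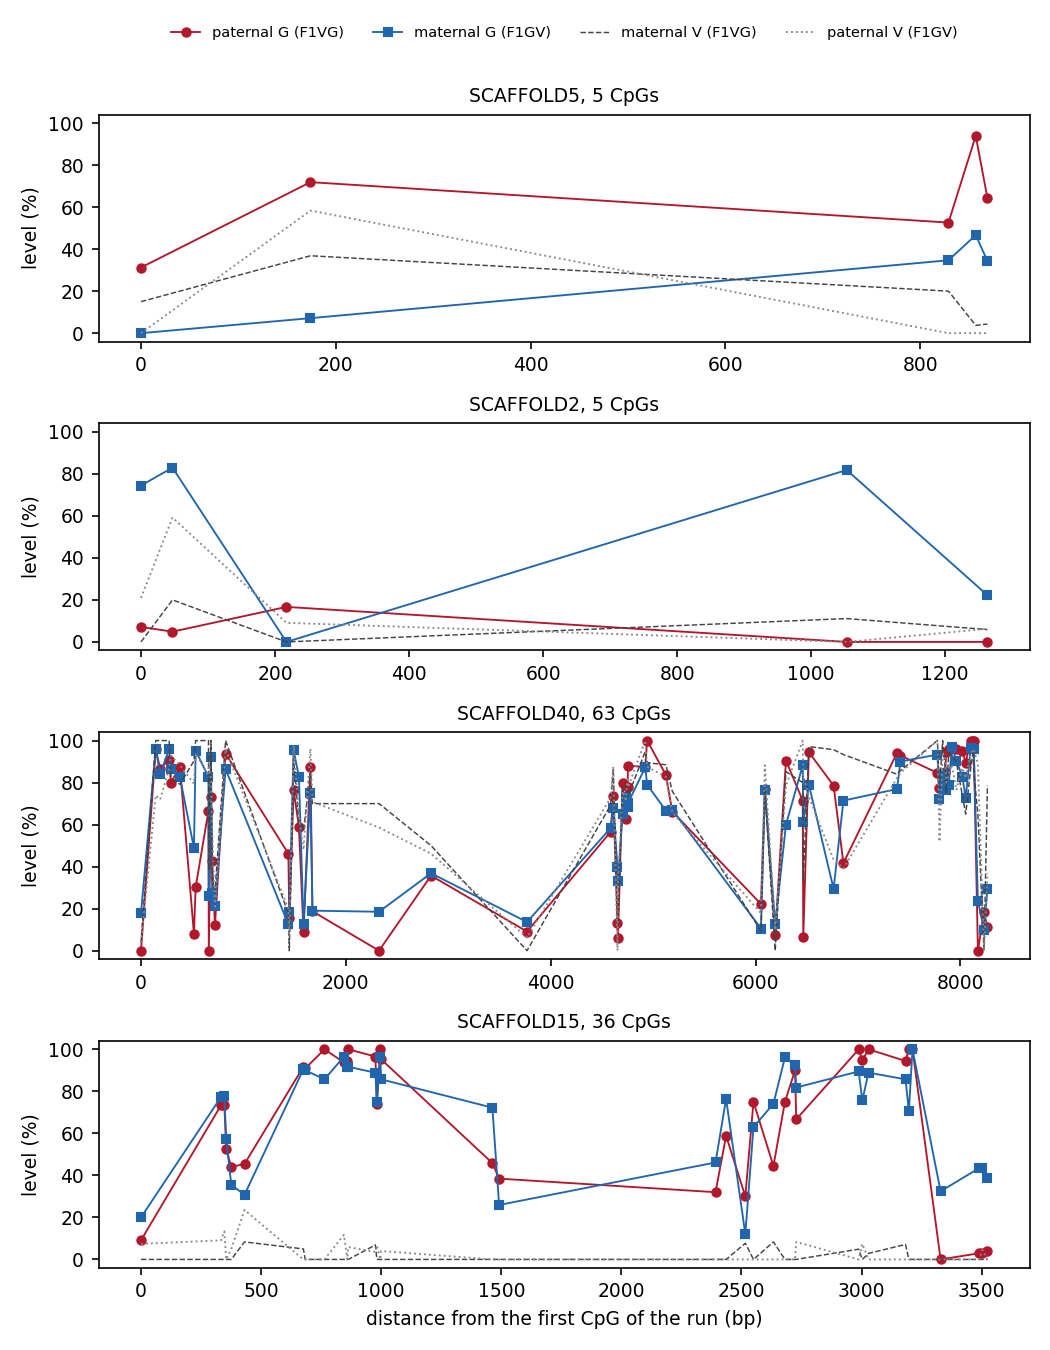
Level (%) of each CpG along 4 runs, by distance from the first CpG (bp), for paternal G in F1VG, maternal G in F1GV, maternal V in F1VG and paternal V in F1GV. From the top are the paternal run with the largest difference (38.2 points), the maternal one (-46.5 points), the run with the most CpGs (63) and the run on SCAFFOLD15 with V under 10% (36 CpGs), at whose last 4 CpGs paternal G is at 0–4% and maternal G at 32.4–43.5%.

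The difference was spread over the genome. On each of the 30 scaffolds with the most members the mean G difference was above 0, from 2.48 points on SCAFFOLD40 to 4.74 on SCAFFOLD4. That of V at these CpGs ran from -0.707 to 1.01 points. The CpGs were chosen on G, and 63.1% of all members had V under 10%, where V has little room to differ. Over CpGs chosen on V, the V difference was 2.07 points and the G difference 0.522 points. At 50% or more it was above 0 on 29 of the 30, from -0.121 points on SCAFFOLD20 to 4.50 on SCAFFOLD10. The share of members called ran from 0.297% on SCAFFOLD8 to 2.02% on SCAFFOLD28, with a median of 0.926%. Scaffolds share the 2 libraries, so these values are no replicates.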

How the data were processed

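WGBS-seq counts of 2 libraries were analysed, 1 for each reciprocal cross. According to the methods and the submitters' processing notes (CASAVA 1.8.2, FastQC, Trimmomatic, BWA), the authors trimmed single-end reads, aligned them to the converted strands of both species' v1.0 genomes, kept unique matches and gave reads to V or G by SNPs or by indels specific to G. The deposited values are whole-number counts of unconverted (C) and converted (T) reads per CpG, without normalization, at CpGs where each allele had 8 or more reads. The smallest G depth in either file was 8. Whether counts sum both strands and how the reference bias was corrected are not given in the sources used here. The effect of assigning reads by species SNPs was not tested.

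G levels, two-sided Fisher's exact tests of G reads in F1VG against F1GV, and an allele by library likelihood ratio test (0.5 added to each count) were computed in Python 3.11.15 (Numba 0.67.0, pandas 2.3.3, SciPy 1.17.1, NumPy 2.4.6), with Benjamini-Hochberg adjustment over all members or runs and calls at an adjusted p under 0.05. Run tests summed CpGs at least 110 bp apart, taken from the first. Figures were drawn with Matplotlib 3.10.9. A floor is 3 counts of the depth, and intervals are 95% Wilson intervals. Zelen's exact test was added later on the same run sums. The scripts were tested on simulated data. Named were the 8 called runs with the largest difference and the 5 called CpGs with the smallest p in each direction, the 4 runs with the most CpGs, and the 4 with the most CpGs among those with V under 10%. The members and these lists were chosen with earlier results of these data known. The alternatives were other level, depth, gap and run limits, sums over all CpGs, a stricter p, a minimum difference, leaving out the deepest CpGs or those (9 members) where V and G counts exceed the count over all reads, and equal depth. RNA-seq data were not analysed here.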

Additional observations from a re-analysis of the deposited data

Results flagged for a closer look

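In 7 of the named runs the F1VG minus F1GV difference of G differed from that of V by the likelihood ratio test, and also by Zelen's exact test, whose p adjusted over the 8393 runs is given. The values given are the G difference minus the V difference of the run means, in percentage points. Among the paternal runs it was 35.9 on SCAFFOLD10 from 1833102 to 1833232 (adjusted exact p = 0.0059) and 63.9 on SCAFFOLD144 from 258543 to 259708 (adjusted exact p = 0.013). On SCAFFOLD144 G was higher and V lower in F1VG. Among the maternal runs it was -43.9 on SCAFFOLD5126 from 7632 to 8076 (adjusted exact p = 0.0092), -26.5 on SCAFFOLD21 from 2034734 to 2035806 (adjusted exact p = 0.0030) and -29.0 on SCAFFOLD9 from 3370488 to 3371970 (adjusted exact p = 3.4e-04). Among the runs chosen for V under 10% it was 10.97 on SCAFFOLD34 from 904036 to 908218 (adjusted exact p = 0.013) and 26.5 on SCAFFOLD33 from 587227 to 591242 (adjusted exact p = 1.9e-05). On SCAFFOLD34 and SCAFFOLD33 the V reads were called and the G reads were not, but under other settings G was called on both, in 4 of them on SCAFFOLD34 and in 2 on SCAFFOLD33 (adjusted Fisher's exact p from 3.9e-04 to 0.028 on SCAFFOLD34, and 0.028 and 1.3e-07 on SCAFFOLD33).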

How the results depend on the processing

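No paired analysis was possible because each cross has 1 library, and for the same reason no replicate could be left out. The cause of the changes below was not tested. The paternal and maternal CpG calls, 671 and 470, became 218 and 156 with a pooled G level of at least 50%, 120 and 115 with no level filter, 280 and 234 at an adjusted p under 0.01, and 246 and 225 at equal G depth. The mean CpG difference of 3.54 points became 3.06 at 20% or more, 2.53 at 50% or more, 2.01 with the level pooled over V and G, and 4.06 at equal depth, where the members were chosen again (170165 CpGs). The paternal run calls, 521, became 167 with at least 16 G reads, 157 with neighbours within 300 bp, 115 within 200 bp and 182 with runs of CpGs at 20% or more. Paternal and maternal run calls became 181 and 33 at an adjusted p under 0.01, 166 and 22 with at least 20 points, 143 and 42 with at least 8 CpGs, 1075 and 267 summed over all CpGs, and 111 and 31 with runs of CpGs at 50% or more, and maternal calls became 49 at equal depth. The mean run difference of 3.42 points became 2.27 with at least 16 reads, 2.37 within 300 bp, 2.24 within 200 bp, 2.30 with at least 8 CpGs, 2.47 at 20% or more, 2.39 at 50% or more and 4.20 at equal depth. Summed over all CpGs, 543 runs had unequal G and V changes, against 173, and by Zelen's exact test 140.

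The mean differences stayed positive under each alternative for which a mean was computed. With no level filter no mean over CpGs was computed. Over the reads of all shared CpGs the paternal G level was the lower, at 2.29% against 2.37%. The runs at 50% or more, the equal depth and Zelen's test were added after the data were seen. Some runs not called in the main test changed sign. Settings that leave out CpGs or narrow the gap can split a run, and the value is then that of a part. For the SCAFFOLD40 run (-1.85) the part had 7.72 with at least 16 reads, 2.86 within 300 and within 200 bp, 2.72 at 20% or more and 7.15 at 50% or more. That part was called with at least 16 reads, at 20% and at 50% or more. At equal depth the SCAFFOLD40 difference was 1.79. The SCAFFOLD10 run of 55 CpGs (-2.07) had 5.35, 2.36, 2.39, 3.27, 2.09 and 1.44 under the same settings. The SCAFFOLD9 run of 59 CpGs (3.40) had -0.942 within 200 bp and -2.37 at 50% or more, and the SCAFFOLD15 run (-3.02) had 4.48 and 0.408. Calls were gained 10 more times without a change of sign, on SCAFFOLD34 in 4 settings and on SCAFFOLD16 (58 CpGs), SCAFFOLD15 and SCAFFOLD33 in 2 each. None of the 10 named CpGs changed its call in the 69 fits that held them. Of the called named runs, those on SCAFFOLD35, SCAFFOLD144, SCAFFOLD5126, SCAFFOLD16 and SCAFFOLD25 were no longer called at equal depth (adjusted Fisher's exact p from 0.068 to 0.43), and the 10-CpG runs on SCAFFOLD5 and SCAFFOLD21 and the SCAFFOLD17 run under narrower gaps or a higher level. At 8 reads a side a CpG's level is imprecise. The smallest difference called at a CpG of any depth was 20.3 points, and at 8 reads a side a larger one is needed.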
